A study of Mus musculus with 12 samples.

Results

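The names examined are miRNA entries thought to be structural RNA fragments or withdrawn annotations: miR-689, miR-690, miR-709, miR-712, miR-715, miR-1195, miR-1959, miR-677, miR-1839 and miR-685. They were chosen by measured values of this series, and they make up 10 of the 464 miRNA names that the lists hold. Small RNA libraries came from 4 mouse cell types in 3 genotypes, with 1 library per combination. The genotypes are called Dicer (Dicer-deficient), Drosha (Drosha-deficient) and control. DN3 thymocytes, early T cell precursors, were sorted from the thymus of Dicer Lck-cre, Drosha Lck-cre and Lck-cre mice. Regulatory T cells (Treg, CD4+CD25+) and CD4+ T cells (CD4), which the series title calls activated, were taken by sorting from the spleen and lymph nodes of mice carrying Dicer CD4-cre, Drosha CD4-cre or CD4-cre alone. Embryonic fibroblasts (MEF) came from E14.5 embryos carrying Dicer Rosa26-CreER, Drosha Rosa26-CreER or Rosa26-CreER. The controls therefore carry the same Cre as the deletion lines. The sorted cells came from mice of 6 to 7 weeks, and the background was backcrossed C57BL/6. Lck-cre and CD4-cre act in T lineage cells, and CreER acts when an inducer is given. The lists do not measure how far Dicer or Drosha was lost, or how many cells escaped.

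In the usual route to a miRNA, nuclear Drosha frees a hairpin from a long precursor, and cytoplasmic Dicer trims that hairpin to a short duplex. Some hairpins reach Dicer without Drosha, and fragments of ribosomal, transfer or small nucleolar RNA can pass for miRNAs in sequencing lists without either enzyme. The libraries took up RNA of 19 to 30 nt whose 5′ end carries a phosphate and whose 3′ end carries a hydroxyl, as products of these enzymes do. In mouse, miR-712 is cut from a spacer of the ribosomal RNA precursor, and miR-709 acts in the nucleus on the primary transcript of miR-15a and miR-16-1. In human cells a small Cajal body RNA (ACA45) gives small RNAs that need Dicer but not Drosha.

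RefSeq (GRCm38.p6) held a mature sequence for 4 of the 10 names, and 5 sequences in all. They are shown because they decide what each list value can stand for, and capitals mark the seed, bases 2 to 8 from the 5′ end.
miR-690: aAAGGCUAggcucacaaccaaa
miR-1195: uGAGUUCGaggccagccugcuca
miR-677-5p: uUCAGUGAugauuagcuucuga
miR-677-3p: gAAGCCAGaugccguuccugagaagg
miR-1839-5p: aAGGUAGAuagaacaggucuug
No other RefSeq mature miRNA shared the seed of any of these 5, so these 4 names do not form a seed family. The other names had no sequence here, so their seeds were not compared. A hairpin is given for 3 of the names in the same table, and 2 of these are shown because they overlap annotated structural RNAs, with the mature sequences in capitals.
miR-1839 hairpin: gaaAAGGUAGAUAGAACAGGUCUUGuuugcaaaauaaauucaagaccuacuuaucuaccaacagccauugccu
miR-677 hairpin: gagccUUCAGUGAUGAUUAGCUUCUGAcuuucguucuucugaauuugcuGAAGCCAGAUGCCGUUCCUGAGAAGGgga

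The genome annotation (GRCm38, GENCODE M21) puts structural RNAs on top of both of these hairpins. The miR-1839 hairpin, chr7:81529916-81529988 on the plus strand, overlaps an annotated small Cajal body RNA at chr7:81529855-81529981 and an exon of the lincRNA 2900076A07Rik. The miR-677 hairpin, chr10:128085286-128085363 on the plus strand, contains an annotated small nucleolar RNA at chr10:128085289-128085360 and sits inside an intron of Atp5b, which codes for a subunit of the mitochondrial ATP synthase. The label structural is thus borne by the annotation for miR-1839 and miR-677. Mir690 lies at chr16:28599935-28600043 on the minus strand, in an intron of Fgf12, and Mir709 at chr8:84086099-84086186 on the plus strand, in an intron of Rfx1, both on the strand of the host gene. Mir1195 lies at chr17:70860503-70860600 on the minus strand, opposite an intron of the pseudogene Gm9320. A RefSeq gene was found for 5 of the 10 names, and none for miR-689, miR-712, miR-715, miR-1959 and miR-685. Mir709 had a gene but no mature sequence there. Whether a name was withdrawn cannot be read from the values, and a missing gene does not by itself show it.

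The mature miR-690 sequence occurred in transcripts of 19 annotated genes, of which 16 are typed as miRNA, and 99.6% of 1674 RefSeq mature sequences occurred in fewer genes. The miR-1839-5p sequence occurred in 3 genes (a miRNA, a scaRNA and a lincRNA), each miR-677 sequence in 2 (a miRNA and a snoRNA) and miR-1195 in 1, against a median of 1. A read of miR-690 therefore cannot be placed on 1 gene. Only exact full-length matches in annotated transcripts were sought, so a count of 1 does not show a single source in the genome. Folded with RNAfold, the miR-677 hairpin gave -0.22 kcal/mol per base, miR-690 gave -0.27 and miR-1839 gave -0.30, against a median of -0.41 over 1005 RefSeq hairpins. Only 1.99% of those hairpins folded more weakly than miR-677, 5.57% more weakly than miR-690 and 11.7% more weakly than miR-1839.

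The deposited values are numbers scaled to 1000000 reads, rounded by the authors, and they sum to between 893850 and 1027032 per library. In the CD4 and MEF lists the low values are whole multiples of a step, which gives the implied number of reads per 1000000. That number was 6100 and 6200 (for different parts of the list) in CD4 Dicer, 7600 in CD4 Drosha and 100000 in CD4 control, and 269700 in MEF Dicer, 77400 in MEF Drosha and 274900 in MEF control. For CD4 control the step may instead reflect rounding, and its implied reads would then be too few. The lowest listed value was 645 in CD4 Dicer, 526 in CD4 Drosha and 20 in CD4 control, and between 11 and 13 in the MEF lists. A name low in CD4 control could therefore enter a CD4 comparison only by being high in the deletion library, and CD4 counts are selected in this way. Intervals below are 95% exact intervals from implied reads and cover counting error only. Each group has 1 library, so no difference has a replicate check and no test was made. Values are relative to the other listed RNAs, so a loss of all miRNAs together cannot be told apart from a gain of these names, nor fewer cells of a type from less RNA per cell. T lymphocyte and blood miRNAs, 7 names, took 10.3% of CD4 Dicer, 5.28% of CD4 Drosha and 9.67% of CD4 control, and from 0.69% to 0.877% of the MEF libraries, while 6 of 6 fibroblast names were listed in each MEF library.

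None of the 10 names was listed in any of the 6 DN3 and Treg libraries. In CD4 cells 8 were listed in Dicer, 10 in Drosha and 9 in control, and in MEF 7, 9 and 7 in the same order of genotypes. Counting all names, these libraries listed 96, 84 and 272 in CD4 and 303, 278 and 314 in MEF, with different floors in CD4. Of the names, 6 were listed in all 6 CD4 and MEF libraries, as were 64 names of the series. The DN3 and Treg lists give distinct sequences, with a floor of 10 for each sequence, and the highest name number they contain is 1198, against 1983 in the CD4 and MEF lists. Names numbered 1000 or more were 1 in DN3 and 1 in Treg, against 33 in CD4 and 31 in MEF. Of the members, only miR-1839 and miR-1959 are numbered above 1198. In the number range spanned by the members below 1000, DN3 held 2 names and Treg 3, against 13 in CD4 and 13 in MEF. Of all names, DN3 held 218 and Treg 222, against 279 in CD4 and 359 in MEF. No sequence of the 6 DN3 and Treg miRNA lists shared 15 bases in a row with any of the 5 mature sequences. What part of this absence came from the naming was not tested.

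**Figure D1:**
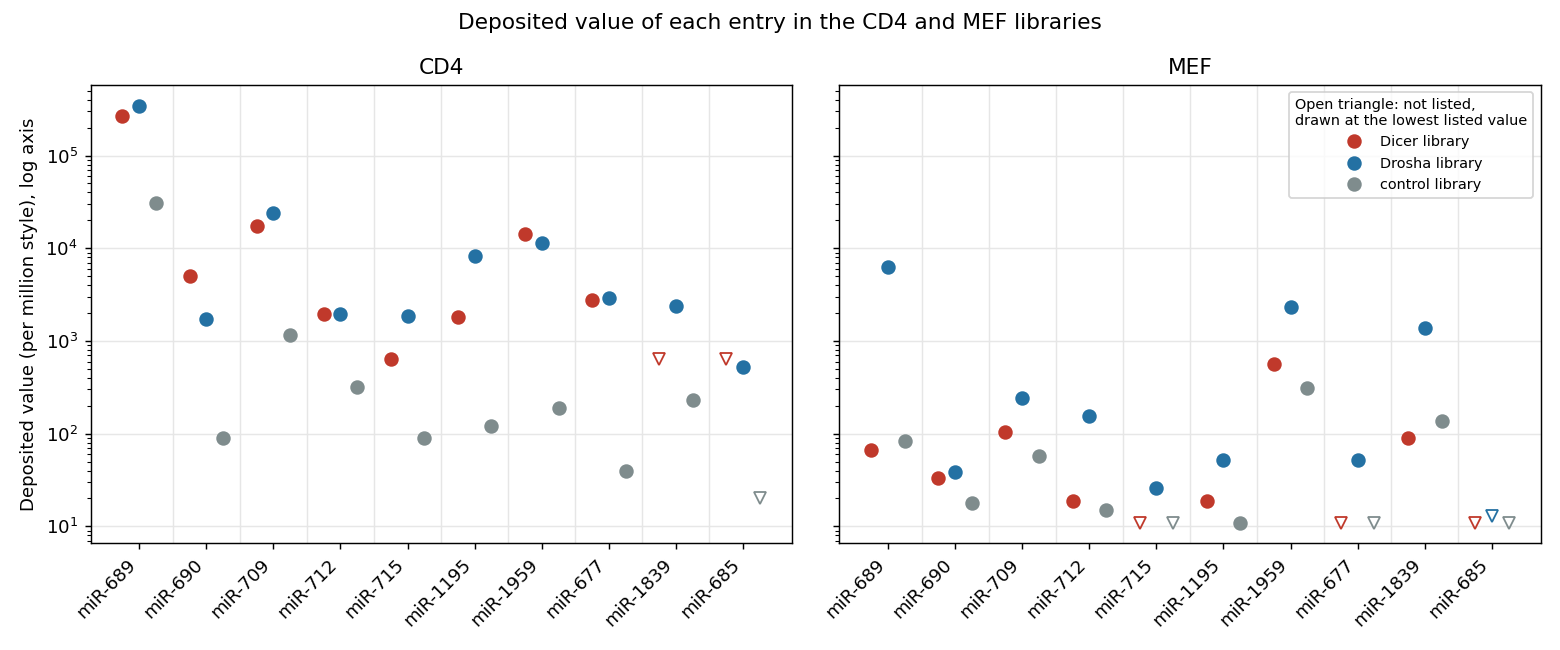
Deposited value (log axis) of each of the 10 names in the CD4 and MEF libraries, Dicer, Drosha and control from left to right, with open triangles at the lowest listed value where a name was not listed. In CD4 the deletion libraries lie above control for each name listed in both, and in MEF the Drosha library is the highest for each listed name. Some MEF Drosha values rest on few implied reads: 2 for miR-715, 3 for miR-690, and 4 each for miR-677 and miR-1195.

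miR-689 was the most abundant name of the CD4 deletion libraries. It stood at 269194 in CD4 Dicer (1669 implied reads), 344342 in CD4 Drosha (2617) and 30690 in CD4 control (3069), where it ranked 1 of 96 names, 1 of 84 and 10 of 272. Its share of the listed total was 30.1% (29 to 31.4%) in CD4 Dicer, 37.8% (36.6 to 38.9%) in CD4 Drosha and 3.06% (2.96 to 3.17%) in CD4 control. Both deletion libraries were far above control, while the implied reads were of the same order in all 3. In MEF miR-689 stood at 67 in Dicer (18 reads), 6240 in Drosha (483) and 84 in control (23), or ranks 192, 11 and 185. Only the Drosha library was high there, and Dicer and control lay close together. The ratio of deposited values was 8.77 (8.26 to 9.31) for Dicer over control and 11.2 (10.6 to 11.8) for Drosha over control in CD4, and 0.798 (0.406 to 1.54) and 74.3 (49.1 to 119) in MEF. Relative to the median miRNA, Drosha over control was 7.14 log2 units in MEF, the highest of 226 names.

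miR-712, from the ribosomal RNA spacer, was summed over miR-712 and miR-712*. It stood at 1935 in CD4 Dicer (12 reads), 1973 in CD4 Drosha (15) and 320 in CD4 control (32). Its arms were 1129 for miR-712 and 806 for miR-712* in CD4 Dicer, 789 and 1184 in CD4 Drosha, and 60 and 260 in CD4 control. By deposited values the CD4 deletion libraries were close to each other and above control. In MEF it stood at 19 in Dicer, 155 in Drosha and 15 in control, or 5, 12 and 4 reads. miR-712* alone was listed in MEF Dicer and control, and MEF Drosha listed 26 for miR-712 and 129 for miR-712*. The Drosha over control ratio was 6.17 (3.1 to 11.7) in CD4 and 10.3 (3.23 to 45.3) in MEF. The Dicer over Drosha ratio was 0.981 (0.419 to 2.24) in CD4 and 0.123 (0.033 to 0.365) in MEF, so the MEF Drosha library alone stood apart in MEF.

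miR-709, the nuclear regulator, stood at 17258 in CD4 Dicer (107 reads), 23947 in CD4 Drosha (182) and 1170 in CD4 control (117). In MEF it stood at 103 in Dicer (28), 245 in Drosha (19) and 58 in control (16). Its Dicer over control ratio was 14.8 (11.2 to 19.3) in CD4 and 1.78 (0.932 to 3.53) in MEF. Its Drosha over control ratio was 20.5 (16.1 to 26) in CD4 and 4.22 (2.05 to 8.77) in MEF. The order of the 3 libraries in MEF was Drosha, Dicer, control, but the interval of Dicer over control includes 1. Relative to the median miRNA that ratio was 1.01 log2 units (0.09 to 2.01), which leaves out 0.

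miR-1959 and miR-1195 lay far above control in the CD4 deletion libraries. miR-1959 stood at 14355 in CD4 Dicer (89 reads), 11316 in CD4 Drosha (86) and 190 in CD4 control (19). Its Dicer over control ratio was 75.6 (45.7 to 131) and its Drosha over control ratio 59.6 (35.9 to 104). The order of the CD4 Dicer and Drosha libraries depends on the scale. The ratio of deposited values was 1.27 (0.933 to 1.73), and relative to the median miRNA it was -0.58 log2 units (-1.03 to -0.14). In MEF miR-1959 stood at 563 in Dicer (152), 2300 in Drosha (178) and 309 in control (85). It was the only one of the 7 names listed in both libraries whose interval of Dicer over control, by deposited values, left out 1 in MEF, at 1.82 (1.39 to 2.41), and its Drosha over control ratio was 7.44 (5.71 to 9.75). miR-1195 stood at 1803 in CD4 Dicer (11 reads), 8158 in CD4 Drosha (62) and 120 in CD4 control (12), and Dicer was below Drosha at 0.221 (0.105 to 0.423). Its MEF values were 19 in Dicer, 52 in Drosha and 11 in control, from 5, 4 and 3 reads, and no ratio of deposited values between them had an interval that left out 1. Relative to the median miRNA, Drosha over control was 3.13 log2 units (0.62 to 5.95) in MEF.

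miR-690, whose sequence occurs in many genes, stood at 5000 in CD4 Dicer (31 reads), 1711 in CD4 Drosha (13) and 90 in CD4 control (9). By deposited values it was the 1 name of the 8 compared with Dicer above Drosha beyond counting error in CD4, at 2.92 (1.49 to 6.09). Relative to the median miRNA the interval included 0, at 0.62 log2 units (-0.36 to 1.68). Its CD4 Dicer over control ratio was 55.6 (25.8 to 133). In MEF its values of 33 in Dicer, 39 in Drosha and 18 in control rest on 9, 3 and 5 reads, and each ratio between them had an interval that included no difference on both scales. miR-715 stood at 645 in CD4 Dicer (4 reads), 1842 in CD4 Drosha (14) and 90 in CD4 control (9). In MEF it was listed in Drosha alone, at 26 (2 reads). Its CD4 Dicer over Drosha ratio of deposited values was 0.35 (0.0839 to 1.12), and relative to the median miRNA it was -2.44 log2 units (-4.50 to -0.77). miR-685 was listed once, at 526 in CD4 Drosha, which is the floor of that library and 4 implied reads.

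miR-677 and miR-1839, the names that overlap a snoRNA and a scaRNA, differed in the CD4 Dicer library, where miR-677 was listed and miR-1839 was not. miR-677 stood at 2742 in CD4 Dicer (17 reads), 2895 in CD4 Drosha (22) and 40 in CD4 control (4). In MEF it was listed in Drosha alone, at 52 (4 reads). The Dicer over Drosha ratio of deposited values in CD4 was 0.947 (0.472 to 1.87), and relative to the median miRNA it was -1.01 log2 units (-2.01 to -0.03). miR-1839, listed as miR-1839-5p alone, was not listed in CD4 Dicer, whose floor is 645, and stood at 2368 in CD4 Drosha (18) and 230 in CD4 control (23). In MEF it stood at 89 in Dicer (24), 1382 in Drosha (107) and 138 in control (38). Drosha was above control at 10.3 (5.24 to 19.9) in CD4 and 10 (6.85 to 14.9) in MEF, and MEF Dicer over Drosha was 0.0644 (0.0395 to 0.101). MEF Dicer over control was 0.645 (0.369 to 1.1). The floor of CD4 Dicer lies above the CD4 control value, so the list gives no order of CD4 Dicer and control. The CD4 Drosha value lies above that floor, so by deposited values miR-1839 was lower in CD4 Dicer than in CD4 Drosha.

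**Figure D2:**
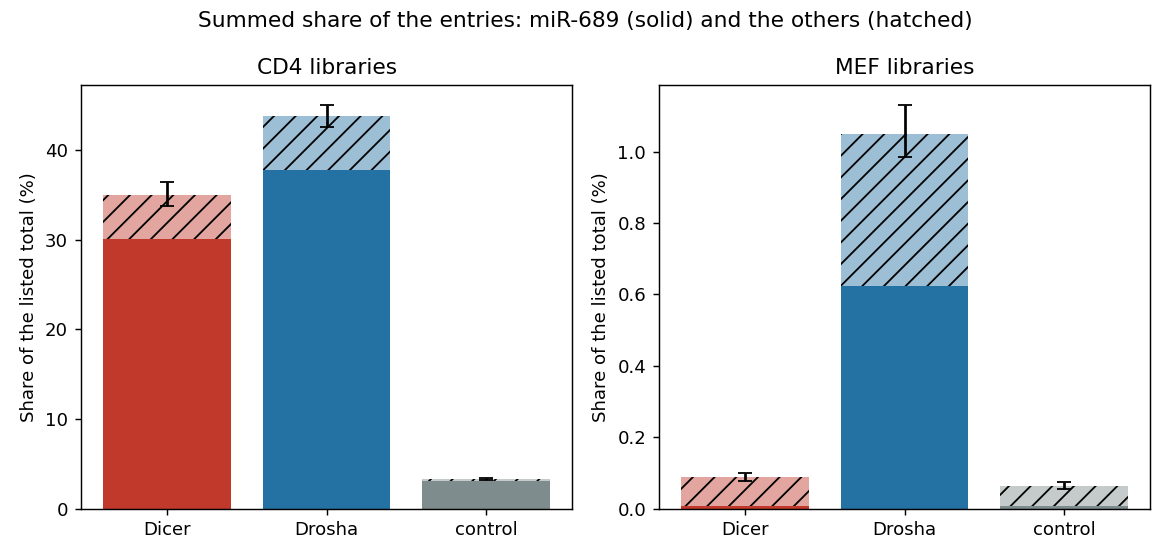
Share of the listed total (%) taken by the names in each CD4 and MEF library, in the order Dicer, Drosha, control, with miR-689 solid, the other names hatched and bars for 95% exact counting intervals; the axes of the panels differ. The CD4 deletion libraries reached 35% and 43.8%, against 3.29% in control, and MEF Drosha 1.05%.

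Summed, the names took 35% (33.8 to 36.4%) of CD4 Dicer, 43.8% (42.6 to 45%) of CD4 Drosha and 3.29% (3.18 to 3.4%) of CD4 control. In MEF they took 0.0893% (0.0784 to 0.101%) of Dicer, 1.05% (0.984 to 1.13%) of Drosha and 0.0632% (0.0542 to 0.0734%) of control. With miR-689 taken out of both the sum and the total, the shares were 7% in CD4 Dicer, 9.65% in CD4 Drosha and 0.232% in CD4 control, and 0.0826%, 0.43% and 0.0549% in the same order in MEF. The rank of the libraries was therefore not set by miR-689 alone. Beside these, a list of transfer RNA fragments took 11.8% of CD4 Dicer, 7.1% of CD4 Drosha and 1.5% of CD4 control, and 0.228%, 1.71% and 0.255% in MEF. Hairpins that bypass Drosha, such as miR-320 and miR-484, took 0.65% of CD4 Dicer, 25.7% of CD4 Drosha and 3.25% of CD4 control, and 1.17%, 19.8% and 1.29% in MEF.

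**Figure D3:**
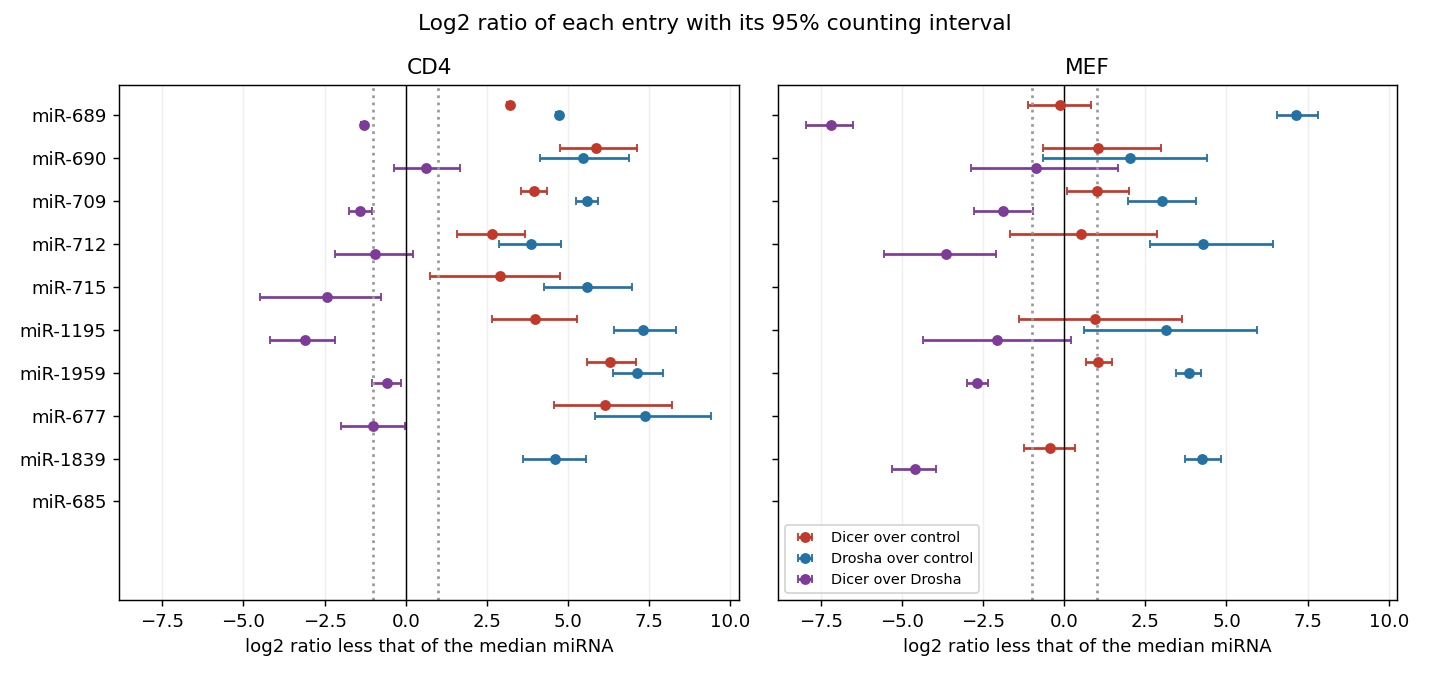
Log2 ratio of each name, less that of the median miRNA, with its 95% counting interval, for Dicer over control, Drosha over control and Dicer over Drosha in CD4 and MEF; dotted lines mark 1 log2 unit. In MEF the Drosha over control ratios lie above 1, and the Dicer over control ratios lie between -0.44 and 1.05.

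For counts, the log2 ratio of each name was set against the median miRNA, which shifted by -0.07 log2 units for Dicer over control, -1.23 for Drosha over control and 0.93 for Dicer over Drosha in CD4, and by -0.19, -0.94 and 0.65 in MEF. In CD4, 8 of 8 names compared were 1 log2 unit or more above the median miRNA in Dicer over control, beside 39.8% of all names above and 31.2% below. In Drosha over control 9 of 9 were above, beside 39.2% above and 26.6% below. The median of the members was 3.97 and 5.57 in these comparisons, and that of the other names -0.24 and -0.12. The names were chosen with these contrasts known and the CD4 floors select high values, so the counts are a description. Among the 72 names at 1000 or more in CD4 control, miR-689 and miR-709 ranked 3 and 1 for Dicer over control and 3 and 2 for Drosha over control. There 9.72% and 11.1% of the 72 names were 1 log2 unit or more above. This choice uses control values only, but 11 of the names in Dicer and 19 in Drosha were not listed and have no ratio. The median that centres the ratios still comes from names past the floors. In Dicer over Drosha 0 of 8 names were above and 5 were below, beside 12.9% above and 15.7% below, with medians of -1.14 for the members and 0.13 for the others.

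In MEF 5 names reached the summed value of 50 needed for the Dicer over control count, and 3 of these 5 were 1 log2 unit or more above in Dicer over control, beside 2.53% of all names above and 1.69% below, with medians of 1.01 for the members and -0.00 for the others. The 3 names were miR-690, miR-709 and miR-1959, at 1.05, 1.01 and 1.05, close to the threshold. In Drosha over control 7 of 7 were above, beside 19.9% above and 15.9% below, with medians of 3.83 and -0.02. In Dicer over Drosha 0 of 7 were above and 6 were below, beside 19.5% above and 19.5% below, with medians of -2.68 and 0.07. By deposited values alone, the interval left out 1 for 8 of 8 names in CD4 Dicer over control, 9 of 9 in CD4 Drosha over control, 1 of 7 in MEF Dicer over control and 5 of 7 in MEF Drosha over control. For Dicer over Drosha it lay above 1 for 1 name, below 1 for 3 and included 1 for 4 of 8 in CD4, and lay below 1 for 5 and included 1 for 2 of 7 in MEF. Relative to the median miRNA, the interval of Dicer over Drosha in CD4 lay above 0 for 0 names, below 0 for 6 and included 0 for 2. These interval counts were made for the members alone. With no share of all names beside them, they do not show whether the members differ from the other names.

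**Figure D4:**
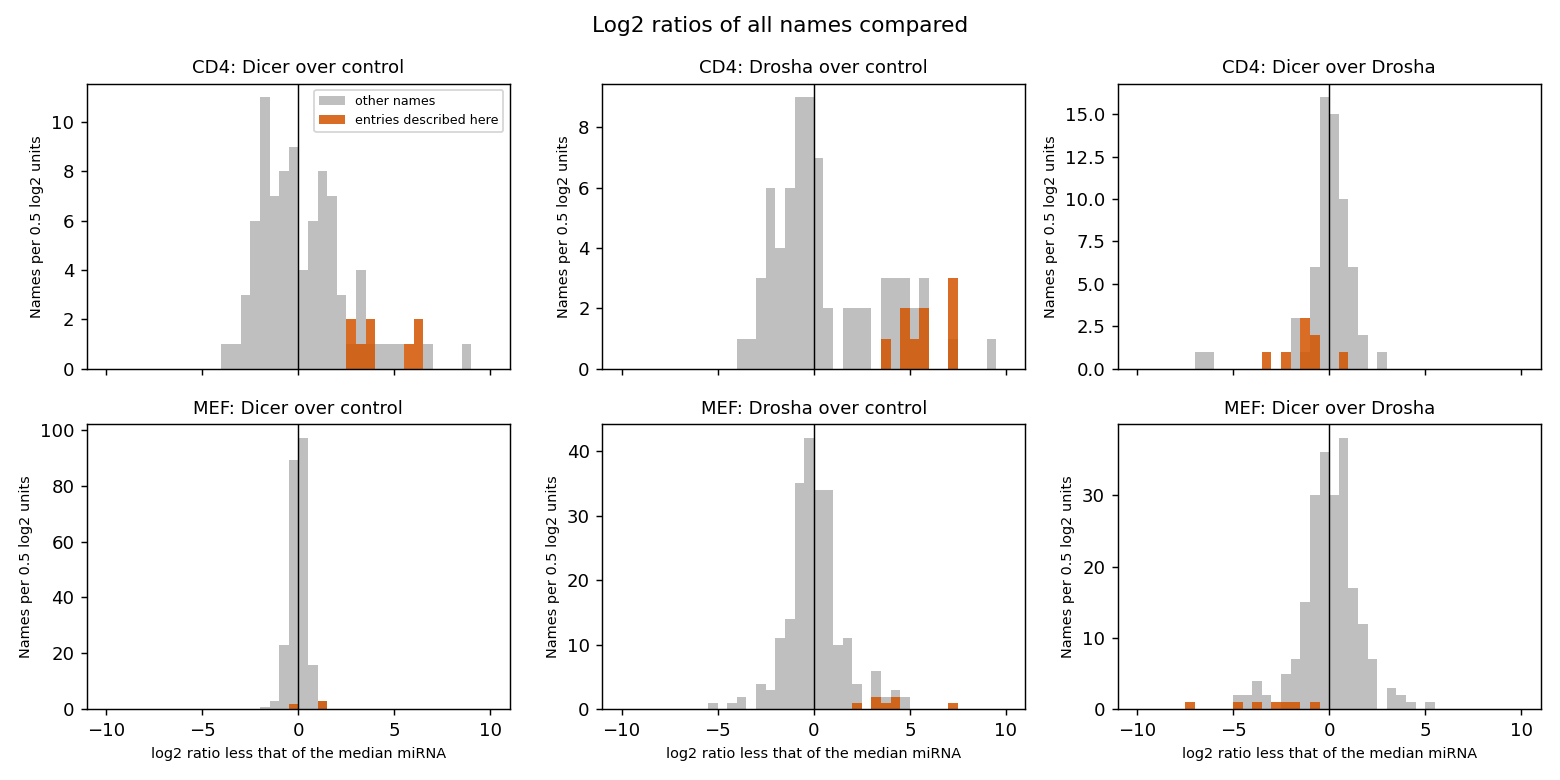
Number of names per 0.5 log2 units by log2 ratio, less that of the median miRNA, for the members compared, 5 to 9 in each panel (orange) and all other names (grey), in each comparison and cell type. In MEF the Dicer over control panel is narrow and the Drosha over control panel has the names at its right side, up to 7.14 for miR-689.

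The other small RNA lists moved to different degrees, and not always in the direction of the members. Transfer RNA fragments were above by 1 log2 unit or more for 5 of 6 entries compared in CD4 Dicer over control, 6 of 7 in CD4 Drosha over control, 0 of 6 in MEF Dicer over control and 7 of 7 in MEF Drosha over control. Hairpins that bypass Drosha were above for 0 of 2, 5 of 5, 0 of 3 and 4 of 4 entries in the same comparisons, and below for 2 of 2 in CD4 Dicer over control. Canonical miRNAs were represented by 12 names only, let-7 names, miR-98, miR-15a, miR-15b and miR-16. Their entries were above for 3 of 10, 1 of 9, 0 of 15 and 0 of 13, and below for 2, 1, 0 and 2. Other canonical miRNAs were not counted in this list. By the mean absolute difference of 4 log2 ratios (Dicer and Drosha over control in CD4 and MEF) among 58 candidates, the name most like miR-712 was miR-1937a at 0.20, and that most like miR-1959 was miR-720 at 0.38, both on the list of transfer RNA fragments. For miR-709 it was miR-1944 at 0.78, for miR-690 miR-10a at 0.94, for miR-1195 miR-720 at 1.10 and for miR-689 miR-1937a at 1.12, against medians over candidates between 2.97 and 4.72. These ratios share the control libraries, and the CD4 ones share the floors. The distances have no counting interval, and some rest on few reads. For miR-712, MEF Dicer over control was 0.52 log2 units (-1.68 to 2.87), from 5 and 4 reads. In that comparison miR-712, miR-1195 and miR-720 fell below the summed value needed for the counts, yet their ratios entered the distances. Whether any name was nearest beyond counting error was not tested.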

How the data were processed

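Small RNAs of 19 to 30 nt having a phosphate at the 5′ end and a hydroxyl at the 3′ end were cloned, per the labels' protocols. The deposited values are scores: numbers scaled to 1000000 reads that the authors rounded to whole numbers, per the file headers (1 header omits the word normalized). The DN3 and Treg lists give distinct sequences, and the CD4 and MEF lists mature miRNAs. The aligner, genome build and miRBase release are not given in the sources used here. Values were summed per name, ignoring arm, star and copy number. Implied reads came from the steps of low values (tolerance 0.6), which came out whole for 81.5% in MEF Dicer and 100% in the other CD4 and MEF lists. The log2 ratio used a pseudocount of 0.5, less the median over names present in each library of the pair whose values sum to 50 or more. Intervals are 95% exact (Clopper-Pearson, or conditional binomial for ratios). The members and lists were chosen with earlier results of these data known. All 10 members were named. The ratio step was tested on simulated data in which a small share of names, all with many expected reads, was changed. That check does not cover names with few reads, or as many changed names as in CD4. Alternatives changed the centring, total, pseudocount, filter and threshold. Python 3.11.15, scipy 1.17.1 and RNAfold 2.7.2 were used.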

Additional observations from a re-analysis of the deposited data

Results flagged for a closer look

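For 3 names there were deposited-value ratios on opposite sides of 1 in CD4 and MEF, and the difference between the cell types was not tested. miR-689 had a Dicer over control ratio of 8.77 (8.26 to 9.31) in CD4 and 0.798 (0.406 to 1.54) in MEF. miR-690 had a Dicer over Drosha ratio of 2.92 (1.49 to 6.09) in CD4 and 0.846 (0.215 to 4.94) in MEF. miR-1959 had a Dicer over Drosha ratio of 1.27 (0.933 to 1.73) in CD4 and 0.245 (0.196 to 0.306) in MEF. Relative to the median miRNA, miR-1959 lay on the same side in both, at -0.58 log2 units (-1.03 to -0.14) in CD4 and -2.68 (-3.00 to -2.36) in MEF, and the CD4 interval of miR-690 included 0, at 0.62 (-0.36 to 1.68). For each pair of deposited-value ratios 1 of the intervals includes 1.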

How the results depend on the processing

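The sign of 1 ratio turned: miR-1959 in CD4 Dicer over Drosha was -0.58 log2 units, but 0.34 without centring and 0.20 without centring and with miR-689 out of the total. Without centring, 33 of 46 ratios moved by no more than their counting interval and 13 moved further, by up to 1.23 log2 units. The counts of names 1 log2 unit or more away then became 1 above and 2 below in CD4 Dicer over Drosha and 0 above in MEF Dicer over control. With a threshold of 2 log2 units the counts became 2 below in CD4 Dicer over Drosha, 0 above in MEF Dicer over control and 5 below in MEF Dicer over Drosha. No share of all names was worked out without centring or at this threshold, so these counts describe the members alone. Restricted to names at 1000 or more in CD4 control, an alternative chosen after seeing the data, 2 names were above in CD4 Dicer over control and 2 in CD4 Drosha over control, since 8 of the 10 names lie below that value. With miR-689 out of the total the summed shares were 7% in CD4 Dicer, 9.65% in CD4 Drosha, 0.232% in CD4 control and 0.43% in MEF Drosha, and with that total and no centring 33 of 40 ratios stayed within their interval. A pseudocount of 1 and no filter each left all 46 ratios within their intervals. Including precursor and loop sequences could not change these ratios, because the CD4 and MEF lists hold mature miRNAs only. Depth limits the CD4 deletion libraries, where 4 reads are the least listed. No paired analysis was possible because each group has 1 library.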

Other observations

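The DN3 control library also has a list of 54267 distinct sequences assigned to genes, without abundance and with no build stated. It was not used in the comparisons. One sequence there, assigned to an intron of Pcdh7 in the sense direction, shares its first 20 bases with miR-690 and differs at A21T and A22T, counted from 1 at the 5′ end with the miR-690 base first (capitals mark these bases).
Pcdh7 intron: aaaggctaggctcacaaccaTT
A further 2 sequences, both from an intron of Glt8d3, share 17 and 16 bases in a row with miR-1195. None shares 15 bases with miR-677-5p, miR-677-3p or miR-1839-5p.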
